A study of Mus musculus with 36 samples.

Results

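Complex I of the mitochondrial respiratory chain was followed through livers of mice by its nuclear genes, that is, every gene whose name was Nduf followed by a, b, c, s, v or af, further letters or none, and a number, pseudogenes left out. This rule, which used names and no expression value, took 44 of the 38283 genes of the count table, and all 44 passed the filter on low counts. By what is known of the proteins, 36 of them were subunits, 6 were assembly factors that help build the enzyme without staying in it, and 2, *Ndufa4* and *Ndufa4l2*, carry the name without being complex I subunits. The subunits divided into 10 of the NADH-oxidising N module, 6 of the ubiquinone-reducing Q module and 20 of the membrane arm.

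The livers came from wild-type (WT) mice and from mice heterozygous for the *Pik3r1* Y657* knock-in (WT/Y657*), a premature stop in the regulatory subunits of phosphoinositide 3-kinase that models human SHORT syndrome, a disorder with insulin resistance. The allele was made in C57Bl/6 embryonic stem cells and is present in every tissue, and the line was kept on a C57Bl/6J background with at least 3 backcrosses. Mice were 16 weeks old and ate chow, and each genotype was sampled fed ad libitum, after a 16 h fast, or after a 16 h fast and 6 h of refeeding, with 6 mice in each of the 6 groups. Libraries were stranded total RNA, read as single 50-base reads, and the question was how the mutation alters the liver transcriptome in each feeding state.

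Complex I is the largest enzyme of the respiratory chain and an entry point for electrons. It takes electrons from NADH at a flavin in the N module, passes them along iron-sulphur clusters to ubiquinone in the Q module, and couples this to the pumping of protons by the membrane arm. The core subunits that carry out this chemistry are flanked by accessory subunits that stabilise the enzyme, and the core subunits of the pump are encoded in mitochondrial DNA, so that assembly draws on both genomes. In liver, NADH from fatty acid oxidation during fasting is a main substrate.

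The 36 libraries held 8839488 to 19542775 counts, with a median of 13596665.5, and no pair of libraries within a group agreed within counting noise. *Pik3r1* itself, whose transcript level need not change with the knock-in, was at 74.5 to 112 CPM (counts scaled to library size) in fasted WT/Y657* mice and at 82.4 to 106 CPM in fasted WT mice, so that its level did not check the genotype. Defining hepatocyte markers were abundant, summing to 49613.5 CPM or more in every library. Mice are named here as in the labels, WT or MT (the mutant) with a number, and these numbers fell into separate runs. Fasted and refed mice came from a low run (up to WT_828) and a high run (from WT_896), with 3 of each genotype from each run, whereas fed mice all had numbers in between. A difference between fed and fasted mice therefore cannot be told apart from a difference between these runs. Among fed mice, the stretch from WT_856 to WT_860 alone included both genotypes, 2 WT and 3 WT/Y657*. For the other fed mice, a genotype difference cannot be told apart from a difference between stretches of numbers. The same fed mice enter the genotype difference in the fasting response.

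The promoters of 4 members are shown because their genes cover the patterns described below: *Ndufs4* and *Ndufb6*, subunit genes higher in fasted WT/Y657* liver, *Ndufaf4*, an assembly factor gene whose fasting response differed with genotype, and *Ndufv1*, the core subunit gene that carries the flavin and was not called in any comparison. Each runs 5′ to 3′ on the gene's own strand over 300 bases, from 250 before to 50 after the RefSeq start on GRCm38.p6. Capitals mark matches on either strand to short cores of factors known for nuclear respiratory genes: TGCGCA, the half-site core of NRF1 and its own reverse complement, CCGGAA, the core bound by ETS factors such as GABPA, AAGATGG, the core of YY1, and AAGGTCA, the half-site of oestrogen-related receptors. The capitals in *Ndufs4* (chr13:114388045-114388344, minus strand) are a YY1 core, those in *Ndufb6* (chr4:40279372-40279671, minus strand) an ETS core and then an NRF1 half-site, those in *Ndufaf4* (chr4:24897833-24898132, plus strand) a pair of NRF1 half-sites, and those in *Ndufv1* (chr19:4012706-4013005, minus strand) an ETS core.
Ndufs4: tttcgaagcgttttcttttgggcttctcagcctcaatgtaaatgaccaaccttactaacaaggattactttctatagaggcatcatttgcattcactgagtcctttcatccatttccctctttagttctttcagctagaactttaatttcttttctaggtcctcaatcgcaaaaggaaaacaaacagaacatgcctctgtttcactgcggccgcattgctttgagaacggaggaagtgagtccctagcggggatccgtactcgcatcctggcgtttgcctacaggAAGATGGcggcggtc
Ndufb6: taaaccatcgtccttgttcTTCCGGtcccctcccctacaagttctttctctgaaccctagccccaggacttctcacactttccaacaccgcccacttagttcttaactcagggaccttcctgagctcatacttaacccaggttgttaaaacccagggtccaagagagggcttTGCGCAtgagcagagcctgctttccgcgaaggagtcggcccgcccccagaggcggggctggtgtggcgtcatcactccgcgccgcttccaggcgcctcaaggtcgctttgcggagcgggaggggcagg
Ndufaf4: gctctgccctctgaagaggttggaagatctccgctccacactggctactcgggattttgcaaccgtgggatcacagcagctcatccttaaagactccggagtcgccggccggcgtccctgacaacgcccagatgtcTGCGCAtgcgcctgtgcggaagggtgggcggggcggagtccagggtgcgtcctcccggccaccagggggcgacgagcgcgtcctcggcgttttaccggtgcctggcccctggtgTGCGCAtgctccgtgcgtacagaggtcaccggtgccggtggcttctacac
Ndufv1: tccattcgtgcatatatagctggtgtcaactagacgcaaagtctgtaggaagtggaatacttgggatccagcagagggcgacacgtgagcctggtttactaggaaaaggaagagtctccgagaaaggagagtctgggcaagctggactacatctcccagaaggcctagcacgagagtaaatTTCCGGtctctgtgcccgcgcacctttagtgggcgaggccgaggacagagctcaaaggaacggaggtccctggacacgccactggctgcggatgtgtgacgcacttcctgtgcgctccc

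RefSeq promoters were matched for 38 of the 44 members. Among the 32 subunits with a promoter, the NRF1 half-site occurred in 31.2% against 15.2% of the 10459 tested genes with a promoter. The YY1 core was present in 21.9% of subunit promoters against 8.25% of all, and the oestrogen-related receptor half-site in 9.38% (3 promoters) against 4.29%. The ETS core, at 31.2% against 30.3%, and TATAAA, at 12.5% against 9.37%, were nearly as frequent among all genes. Of the 5 assembly factors matched, 1 held the NRF1 half-site and 1 the ETS core. None held the YY1 core, the receptor half-site or TATAAA, but 5 promoters are too few to set against the shares of all genes. These are counts of letters in a fixed window and say nothing of occupancy.

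Levels per kilobase of exon had a higher median in subunits than in assembly factors, with overlap between them. As mean CPM per kilobase over the 36 livers, with exons joined over all annotated transcripts, subunits had a median of 39.2, from 5.28 for *Ndufab1*, the mitochondrial acyl carrier protein, to 178 for *Ndufb9*, a membrane-arm subunit. The medians were 39.2 for the N module, 38.7 for the Q module and 44.1 for the membrane arm, so that the modules were at similar levels. Assembly factors had a median of 6.32, from 2.33 for *Ndufaf5* to 16.4 for *Ndufaf1*. *Ndufa4*, now known as a subunit of cytochrome c oxidase, was at 169, and its relative *Ndufa4l2*, known as a hypoxia-induced gene, at 0.667, with 2 to 23 counts per library. Lengths joined over transcripts lower the value of a gene with long rarely used exons. For 19 members, exons shared bases with another gene, in 3 on the same strand (*Ndufb2*, *Ndufb8* and *Ndufb9*). *Ndufb6* shared 257 bases, 39.0% of its exons, with *Smim27* on the opposite strand, and *Ndufaf2* 1955 bases, 65.6%, with a non-coding gene. The strand setting of the counting is not given in the sources used here, so reads of such pairs cannot be fully told apart.

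The genotype comparison in fasted mice held most of the genotype calls. In fasted liver, 22 of the 44 members were higher and 1 was lower in WT/Y657* mice at an edgeR adjusted p under 0.05, where 6.43% of all 13945 tested genes were higher and 6.63% lower. Subunits were higher in 19 of 36 cases and lower in none, with 31 of 36 estimates positive and a median log2 fold change of 0.22, against 0.00 over all genes tested. The membrane arm had 12 of 20 subunits higher (median 0.28), the N module 6 of 10 (median 0.21) and the Q module 1 of 6 (median 0.07). Among accessory subunits 17 of 29 were higher, with a median of 0.26, and among the 7 nuclear core subunits 2 were, with a median of 0.07. No test compared these classes. In 11 subunits every WT/Y657* mouse lay above every WT mouse, as did 2.56% of all genes. Without mouse WT_807 the count of members called fell from 23 to 15, and without mouse MT_923 to 14.

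**Figure D1:**
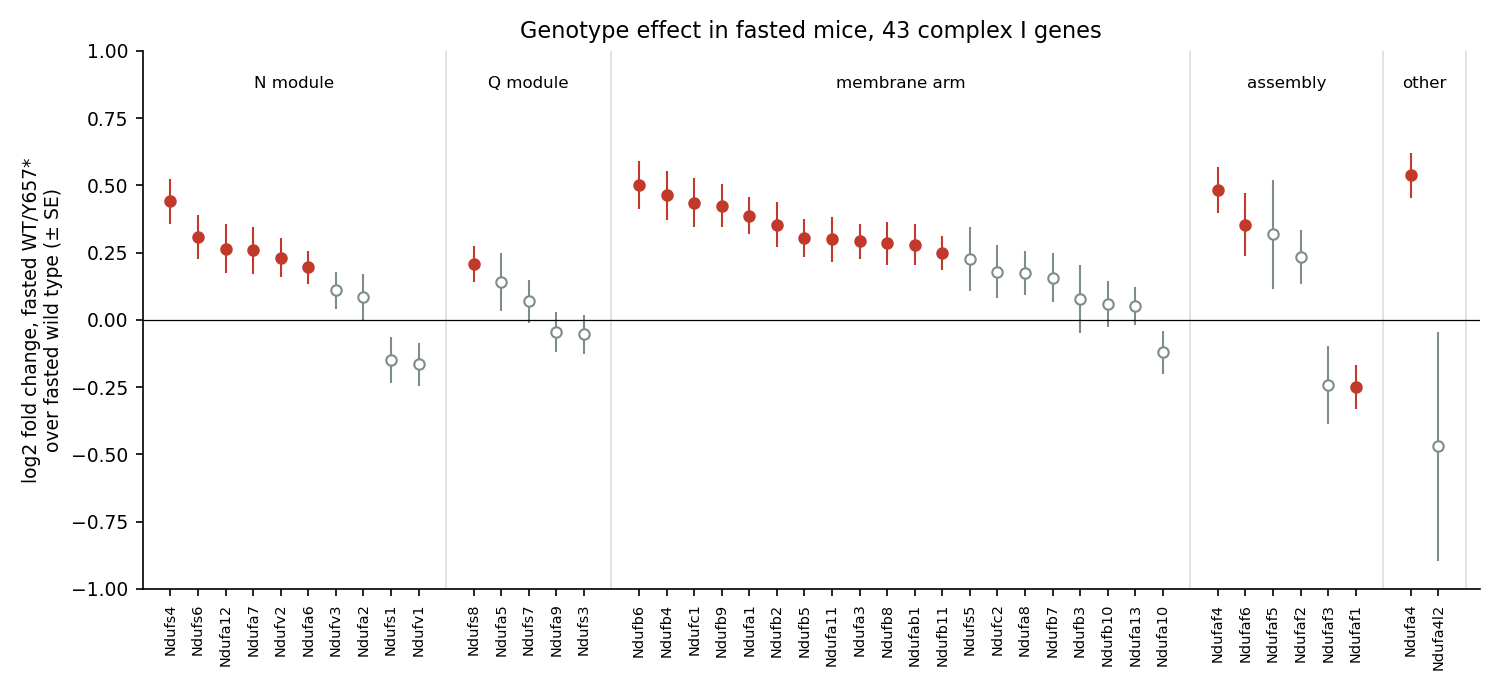
Log2 fold change (WT/Y657* over WT, fasted mice) of 43 members with its standard error as a bar, 6 mice per genotype, ordered by module; filled red points have an edgeR adjusted p under 0.05. Red points fill most of the N module and membrane arm, where they lie between 0.20 and 0.50, while the Q module has 1 and the assembly factors stand on both sides of 0.

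Accessory subunits of the N module and membrane arm led. *Ndufb6*, an accessory subunit of the membrane arm, was at 39.6 to 53.3 CPM (median 44.9) in fasted WT and at 56.8 to 75.1 CPM (median 63.6) in fasted WT/Y657* liver. Its groups did not overlap, and the log2 fold change was 0.50 ± 0.09 (SE, edgeR adjusted p = 0.000232). *Smim27*, whose exons share bases with it, was at -0.02 on the log2 scale (edgeR adjusted p = 0.943). For *Ndufb4*, another membrane-arm subunit, WT mice were at 25.7 to 29.8 CPM (median 26.6) and WT/Y657* mice at 34.1 to 44.1 CPM (median 35.6). These ranges too were apart, at 0.46 ± 0.09 log2 (edgeR adjusted p = 0.000687). *Ndufs4*, the accessory N-module subunit whose loss in mice gives a model of Leigh syndrome, was at 48.4, 53.2 and 60.3 CPM (lowest, median and highest) in WT and at 63.1, 73.2 and 84.7 CPM in WT/Y657* liver. Every WT/Y657* mouse exceeded every WT mouse, and the difference was 0.44 ± 0.08 log2 (edgeR adjusted p = 0.000573). *Ndufs4* lies 12.6 Mb from *Pik3r1* on chromosome 13, which also carries *Ndufaf2* at 6.32 Mb and *Ndufs6* further off, and whether alleles linked to the knock-in play a part was not tested. In fed and refed liver *Ndufs4* was at -0.03 and -0.09 log2 between genotypes.

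*Ndufc1*, a small membrane-arm subunit, was at 19.8 to 26.1 CPM (median 23.2) in WT and at 27.3 to 36.4 CPM (median 30.4) in WT/Y657* fasted liver, a difference of 0.44 ± 0.09 log2 (edgeR adjusted p = 0.00123). The most abundant subunit per kilobase, *Ndufb9*, was at 139.8 to 186 CPM (median 169) in WT and 193 to 260.1 CPM (median 226) in WT/Y657* mice, 0.42 ± 0.08 log2 apart (edgeR adjusted p = 0.00056). *Ndufa1*, a single-span subunit placed where the arms meet, was at 42.4 to 46.8 CPM (median 45.3) against 51.5 to 67.7 CPM (median 59.9), 0.39 ± 0.07 log2 apart (edgeR adjusted p = 0.000213). All of these ranges were separate, with the WT/Y657* mice above. The remaining called subunits ranged from 0.20 to 0.35 log2, among them *Ndufb2* at 0.35, *Ndufs6*, a zinc-binding N-module subunit, at 0.31 (edgeR adjusted p = 0.0095) and *Ndufab1* at 0.28 (edgeR adjusted p = 0.0103).

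**Figure D2:**
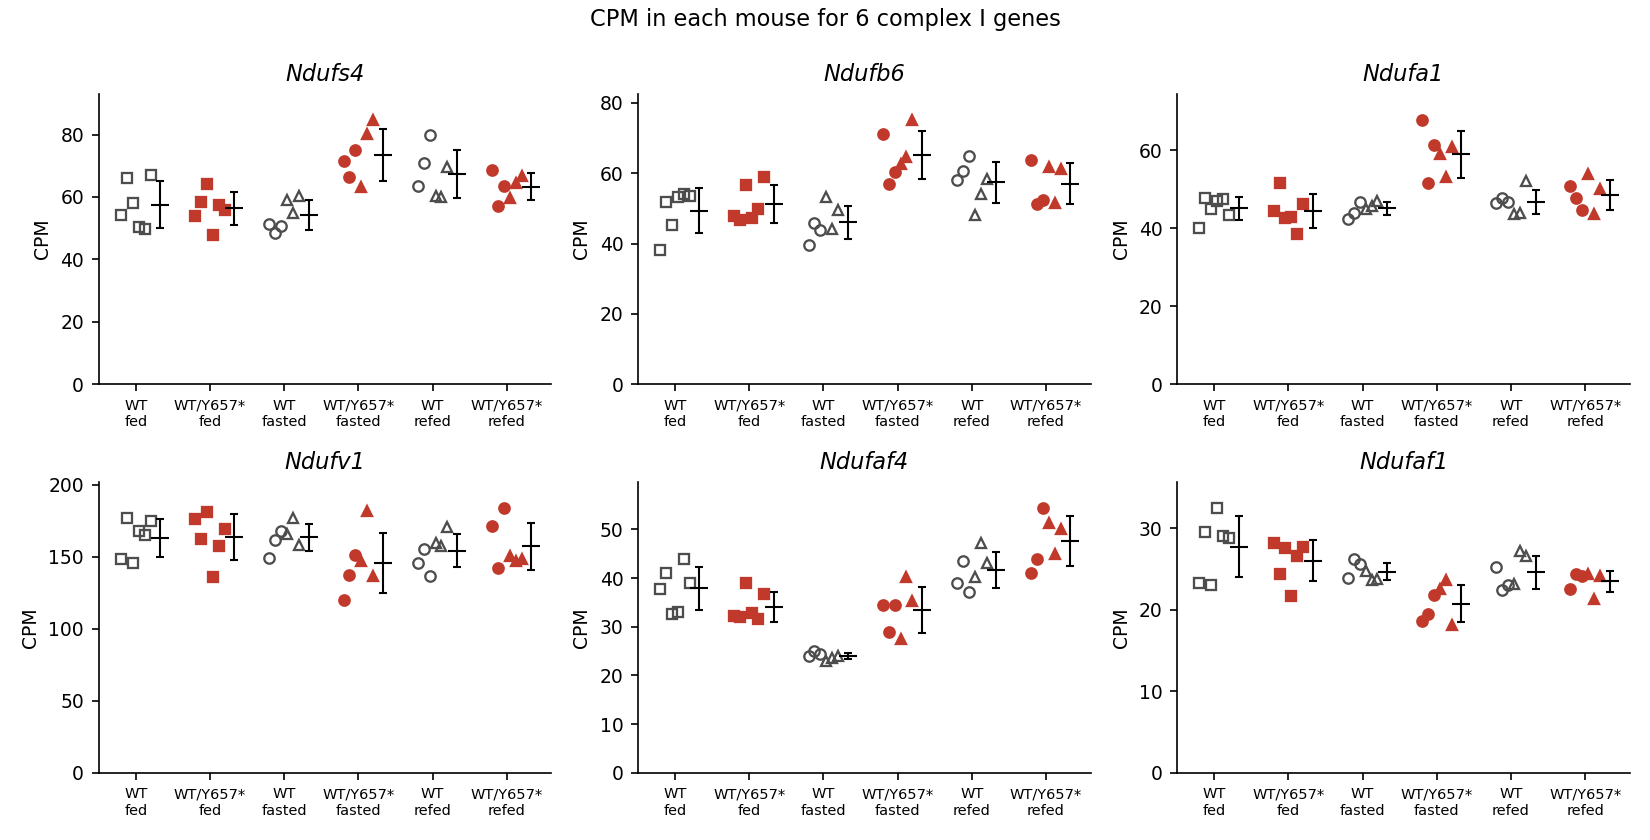
CPM of *Ndufs4*, *Ndufb6*, *Ndufa1*, *Ndufv1*, *Ndufaf4* and *Ndufaf1* in each of the 36 livers by feeding state and genotype (open grey, WT, filled red, WT/Y657*, circles, low mouse numbers, squares, middle, triangles, high), with black bars for mean and SD of 6 mice. Fasted WT/Y657* mice stand above fasted WT mice without overlap for *Ndufs4*, *Ndufb6*, *Ndufa1* and *Ndufaf4*. For *Ndufaf1* they lie below, but the groups nearly touch, whereas *Ndufv1* overlaps in every state.

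The nuclear core subunits, which hold the flavin and the iron-sulphur clusters, were mostly not called. *Ndufv1*, which binds NADH and flavin, was at 149 to 177 CPM (median 164) in fasted WT and at 119.8 to 182 CPM (median 142) in fasted WT/Y657* liver, with the WT range inside the other (-0.17 ± 0.08 log2, edgeR adjusted p = 0.179). *Ndufs1*, the large iron-sulphur subunit of the N module, was at 126 to 157 CPM (median 147) against 99 to 162 CPM (median 129), again with overlap (-0.15 ± 0.09 log2, edgeR adjusted p = 0.262). *Ndufs7*, a Q-module subunit at the ubiquinone site, was at 0.07 log2, and *Ndufs3*, also of the Q module, at -0.05. Called among the core genes were *Ndufv2*, the iron-sulphur partner of *Ndufv1*, at 0.23 ± 0.07 (edgeR adjusted p = 0.0291), and *Ndufs8*, an iron-sulphur subunit of the Q module, at 0.21 ± 0.07 (edgeR adjusted p = 0.0313). For *Ndufs8* the ranges overlapped, at 38.2 to 50.9 CPM (median 40.7) in WT and 43.4 to 55.1 CPM (median 50.7) in WT/Y657* mice. Its call was lost in 8 of the 12 fits that left out a single fasted mouse, and that of *Ndufv2* in 4, without mouse WT_807 or WT_824 or mouse MT_922 or MT_923.

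Assembly factors moved in both directions. Of the 6, 2 were higher and 1 was lower in fasted WT/Y657* liver, with a median of 0.28 log2. *Ndufaf4*, which acts with *Ndufaf3* in building the Q module, was at 22.9, 24 and 25 CPM (lowest, median and highest) in fasted WT and at 27.4, 34.5 and 40.3 CPM in fasted WT/Y657* mice. No WT mouse reached the lowest WT/Y657* mouse, and the difference was 0.48 ± 0.09 log2 (edgeR adjusted p = 0.000252). *Ndufaf6*, needed at an early step of assembly, was at 5.58 to 8.39 CPM (median 6.38) against 7.55 to 9.71 CPM (median 8.81), overlapping ranges 0.35 ± 0.12 log2 apart (edgeR adjusted p = 0.0405). Its call was lost in 8 of the 12 fits without a single fasted mouse. *Ndufaf1*, a member of the assembly complex of the proton-pumping part, went the other way, at 23.7 to 26.2 CPM (median 24.3) in WT and 18.2 to 23.7 CPM (median 20.7) in WT/Y657* liver. All WT/Y657* mice were below all WT mice, as were groups in 2.48% of all genes. The margin was narrow, with the highest WT/Y657* mouse at 23.69 and the lowest WT mouse at 23.72 CPM. The difference was -0.25 ± 0.08 log2 (edgeR adjusted p = 0.0388), a call lost in 7 of those 12 fits. The other assembly factors were not called: *Ndufaf5*, which modifies *Ndufs7*, at 0.32 ± 0.20, *Ndufaf2*, a chaperone of late assembly, at 0.23 ± 0.10 and *Ndufaf3* at -0.24 ± 0.14 log2. A pair of further assembly factors was listed under older names and so fell outside the rule: *Ndufaf7*, a methyltransferase, was at -0.31 (edgeR adjusted p = 0.128) and *Ndufaf8*, a partner of *Ndufaf5*, at 0.34 (edgeR adjusted p = 0.073).

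Among the called members *Ndufa4* had the largest estimate. Fasted WT mice were at 184 to 241 CPM (median 211) and fasted WT/Y657* mice at 270.1 to 345 CPM (median 298), without overlap, 0.54 ± 0.08 log2 apart (edgeR adjusted p = 5.41e-05). *Ndufa4l2* was near its detection limit at 0.289 to 0.931 CPM against 0.227 to 0.777 CPM (-0.47 ± 0.43 log2, edgeR adjusted p = 0.52).

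Within each run of mouse numbers, with 3 mice per genotype, 30 of 36 subunits were higher in fasted WT/Y657* liver in the low run and 30 of 36 in the high run, with medians of 0.21 and 0.19 log2. Of the subunits 10 were called by edgeR in the low run and 0 in the high run, with 16 and 15 at an unadjusted p under 0.05. How many of all genes lay under that unadjusted p in each run was not counted. Over all genes 522 were called higher and 483 lower in the low run, against 27 and 26 in the high run. In the high run *Ndufaf4* was the 1 member called. It was at 0.41 log2 in the low run (edgeR adjusted p = 0.0393) and 0.54 in the high run (edgeR adjusted p = 0.0426). For the assembly factors together the median was 0.37 in the low and 0.04 in the high run. Of 7 hepatocyte markers 1 was called lower in WT/Y657* liver, though 4 estimates were positive (median 0.21 log2). Of 5 endothelial markers 1 was called higher, though 3 were negative (median -0.04). Of 6 stellate markers 1 was called higher (4 positive, median 0.17), and none of the 6 Kupffer cell markers was called (median 0.04). The summed stellate markers were at 332 to 403 CPM in WT and 364 to 532 CPM in WT/Y657* fasted mice, and their part in the result was not tested. Fewer cells of a type and less RNA per cell cannot be told apart in whole liver.

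Gene length ran alongside the fasted genotype difference. Subunit genes are short, with a median exonic length of 1643.5 bases against 4268 for all tested genes with a length, and 25 of the 36 subunits and 4 of the 6 assembly factors lay in the shortest quintile (up to 2283.2 bases). Of the genes in that quintile, 11.4% were higher and 3.41% lower in fasted WT/Y657* mice, against 4.68% and 6.53% in the longest quintile. The difference between the shortest and longest quintiles of genes within a library was 0.0955 log2 larger in fasted WT/Y657* than in fasted WT mice (exact permutation test over mice, 2-sided, p = 0.0238, 0.0714 after adjustment over 3 feeding states), and 0.14 with deciles in place of quintiles (exact permutation p = 0.0152, adjusted 0.0455). By run of mouse numbers the quintile value was 0.152 log2 larger in fasted WT/Y657* mice in the low run and 0.0387 in the high run. The mean subunit score was 0.205 and 0.178 larger. These splits by run were not tested. In a fit with a smooth correction for length and GC content in each library, 14 members were called higher and 1 lower. All 15 of them were called without it. *Ndufs4* was then at 0.39, *Ndufb6* at 0.34, *Ndufb9* at 0.36 and *Ndufaf4* at 0.42 log2, each still called, whereas *Ndufa1*, the shortest subunit gene at 419 bases, was at 0.16 (edgeR adjusted p = 0.0949). The core genes *Ndufv2*, at 0.14 (edgeR adjusted p = 0.176), and *Ndufs8*, at 0.16 (edgeR adjusted p = 0.0708), were no longer called either. Also lost were the calls of *Ndufs6*, at 0.19 (edgeR adjusted p = 0.0681), and *Ndufaf6*, at 0.27 (edgeR adjusted p = 0.12). The subunit median was 0.16 in place of 0.22.

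**Figure D3:**
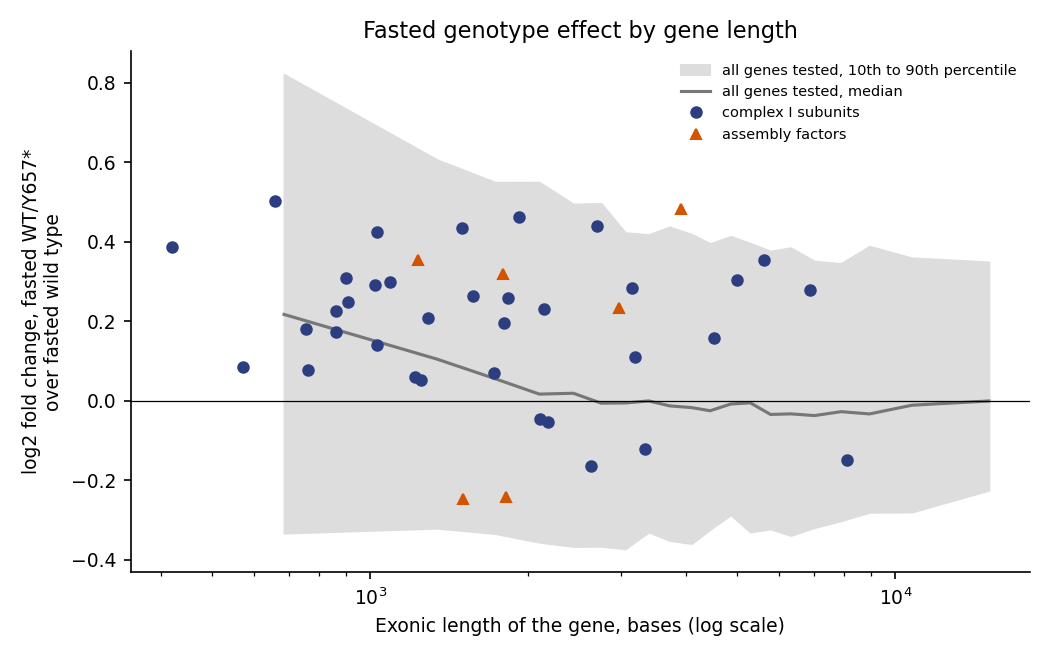
Log2 fold change (WT/Y657* over WT, fasted mice) of the members against exonic length in bases on a log axis, with a band from the 10th to the 90th percentile of all tested genes of similar length. The middle and the upper edge of the band rise towards short genes, the middle to 0.22 in the shortest bin. Its lower edge does not rise, at -0.33 in the shortest and -0.23 in the longest bin. The subunits sit within the band, most of them above its middle.

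In fed and in refed mice no member was called. For fed mice, 1.21% of all genes were higher and 1.15% lower in WT/Y657* liver. An unadjusted p under 0.05 was found for 2 of the 44 members, beside 2423 of all 13945 genes. Subunits had 28 of 36 estimates above 0 and a median of 0.05 log2, and assembly factors a median of -0.02. Kupffer cell and macrophage markers moved with the fed groups, all 6 with an unadjusted p under 0.05 though none called after adjustment, and summed to 229 to 318 CPM in WT and 218 to 746 CPM in WT/Y657* mice. Of 6 stellate cell and 3 lymphocyte markers tested, 1 each was called higher in WT/Y657* mice (medians 0.25 and 2.07 log2), and all 7 hepatocyte markers were negative (median -0.19) with none called. The part of these markers was not tested. The largest differences among members were 0.20 for *Ndufb2* (edgeR adjusted p = 0.186) and 0.18 for *Ndufs3* (edgeR adjusted p = 0.184). Among refed mice, 0.0215% of genes were higher and 0.00717% lower. Again 2 members had an unadjusted p under 0.05, beside 1329 of all 13945 genes. Medians were 0.01 for subunits and 0.01 for assembly factors. *Ndufs7* had the largest difference among nuclear-encoded subunits at 0.20 and *Ndufaf4* the largest among the 6 assembly factors at 0.19 log2, while the sparse *Ndufa4l2* was at -0.53 ± 0.39 (edgeR adjusted p = 0.689). DESeq2 also called no member in either state.

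Of the members in WT liver, 3 assembly factors and 2 subunits fell with fasting and 2 subunits rose. Thus 2 of 44 members were higher and 5 lower in fasted than in fed WT mice, where 14.5% of all genes were higher and 17.5% lower. Both counts are smaller shares than those of all genes. The median over subunits was -0.01 log2. *Ndufs8* was at 52.2 to 63.1 CPM (median 56.4) fed and 38.2 to 50.9 CPM (median 40.7) fasted, without overlap (-0.41 ± 0.07 log2, edgeR adjusted p = 5.59e-06). *Ndufa8*, a membrane-arm subunit, also lay wholly lower, at -0.25 (edgeR adjusted p = 0.015), while *Ndufa7* rose by 0.28 (edgeR adjusted p = 0.014) and *Ndufs7* by 0.21 (edgeR adjusted p = 0.0415), both with ranges that overlapped, and the call of *Ndufs7* was lost in 7 of 12 fits without a single mouse and that of *Ndufa7* without WT_918. Wholly lower in fasted mice were 2 of the 36 subunits and 1 of the 6 assembly factors, beside 9.70% of all genes. Of the 6 assembly factors 3 fell and the median was -0.25 log2. *Ndufaf4* was at 32.7 to 43.9 CPM (median 38.4) fed and at 22.9 to 25 CPM (median 24) fasted, with a wide gap between the groups (-0.66 ± 0.09 log2, edgeR adjusted p = 1.23e-07). *Ndufaf5*, at 2.87 to 6.27 CPM fed and 1.75 to 3.69 CPM fasted, overlapped at -0.67 ± 0.20 (edgeR adjusted p = 0.00887), and *Ndufaf6* fell by 0.33 on the log2 scale (edgeR adjusted p = 0.0303), a call lost in 7 of 12 fits without a single mouse.

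In WT/Y657* liver the same fast gave 15 members higher and 3 lower, beside 15.2% and 17.7% of all genes. Here 14 of 36 subunits rose and 2 fell (median 0.14 log2). After *Ndufa4*, at 185 to 261 CPM (median 208) fed and 270.1 to 345 CPM (median 298) fasted (0.53 ± 0.08 log2, edgeR adjusted p = 4.88e-06), the leading genes were *Ndufb9* at 0.47 (edgeR adjusted p = 2.33e-05), *Ndufa7* at 0.42, *Ndufa1* at 0.41, *Ndufs4* at 0.38 and *Ndufb4* at 0.36. The fasted mice lay wholly above the fed mice for *Ndufa4*, *Ndufb9* and *Ndufa1*, and overlapped them for the others. Of the 36 subunits 2 lay wholly above, beside 4.96% of all genes. *Ndufs8*, lower with fasting in WT mice, was lower here also (-0.21, edgeR adjusted p = 0.0119), with a difference between genotypes of 0.20 that was not called (edgeR adjusted p = 0.221), and *Ndufa10*, a membrane-arm subunit with a nucleoside kinase fold, fell by 0.21 on the log2 scale (edgeR adjusted p = 0.0392), a call lost in 7 of 12 fits without a single mouse. Among assembly factors *Ndufaf1* fell by 0.33 on the log2 scale (edgeR adjusted p = 0.00184), and no other was called (median -0.08). *Ndufaf4* was at 31.7 to 38.9 CPM (median 32.5) fed and 27.4 to 40.3 CPM (median 34.5) fasted, the fed range lying inside the fasted one (-0.03 ± 0.08 log2, edgeR adjusted p = 0.852).

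The difference between genotypes in the fasting response was tested directly. It was called for 6 members, all more positive in WT/Y657* mice, where 2.59% of all genes differed in that direction and 1.76% in the other. They were *Ndufaf4* (0.64 ± 0.12 log2, edgeR adjusted p = 0.00223), *Ndufa1* (0.41 ± 0.10, edgeR adjusted p = 0.0113), *Ndufs4* (0.47 ± 0.12, edgeR adjusted p = 0.0181), *Ndufa4* (0.43 ± 0.12, edgeR adjusted p = 0.0313), *Ndufb6* (0.45 ± 0.13, edgeR adjusted p = 0.0336) and *Ndufc1* (0.42 ± 0.13, edgeR adjusted p = 0.0474). The median over subunits was 0.15 log2 and over assembly factors 0.24. This count was 3 when fed mouse WT_860, fasted mouse WT_807, fed mouse MT_866 or fasted mouse MT_806 or MT_923 was left out, and 2 with the correction for length and GC content. Left out one at a time, mice ended the call of *Ndufc1* in 17 of 24 fits, of *Ndufb6* in 12 and of *Ndufa4* in 6. The same fasted mice enter this comparison and that between genotypes in the fasted state. Markers of other cell types moved with this comparison. All 6 Kupffer cell and macrophage markers were negative (median -0.81 log2) and none was called by edgeR. Of these, 4 had an unadjusted p under 0.05, beside 2664 of 13945 genes. Of 3 lymphocyte markers tested 1 was called lower (median -1.53), and 1 of 7 hepatocyte markers was called higher (median 0.32). Their part in the result was not tested.

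On refeeding 5 of the 6 assembly factors rose in WT and 3 of 6 in WT/Y657* mice. In WT liver 18 members were higher in refed than in fasted mice and none was lower, beside 16.5% and 13.7% of all genes. The assembly factors had a median of 0.43 log2, and among the 36 subunits 13 rose, with a median of 0.16. *Ndufaf4* was at 37.1 to 47.1 CPM (median 41.6) after refeeding, all above the fasted mice (0.80 ± 0.09 log2, edgeR adjusted p = 4.61e-09). Of the 6 assembly factors 2 lay wholly above, beside 9.14% of all genes. *Ndufaf5* rose by 0.69 ± 0.20 (edgeR adjusted p = 0.00731), *Ndufaf3* by 0.47 ± 0.14 (edgeR adjusted p = 0.00892), *Ndufaf6* by 0.38 ± 0.12 (edgeR adjusted p = 0.0125) and *Ndufaf2* by 0.31 ± 0.10 (edgeR adjusted p = 0.0143). *Ndufaf1* was at 0.00 ± 0.08. The subunits with the largest rise were *Ndufb10* at 0.39, *Ndufab1* at 0.38, *Ndufb2* at 0.33, *Ndufa11* at 0.32 and *Ndufb6* at 0.32, and of the core subunits *Ndufs8* rose by 0.29 (edgeR adjusted p = 0.000665). With the correction for length and GC content 11 members were called, 10 of them among the 18, and the subunit median was 0.06.

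In WT/Y657* liver refeeding gave 7 of 44 members higher and 7 lower, beside 17.1% and 14.2% of all genes. The members were thus called about as often as all genes, and those named below are not set apart by their number. Of the assembly factors 3 rose and none fell (median 0.34 log2), namely *Ndufaf3*, at 5.78 to 10.9 CPM (median 8.72) fasted and 11.5 to 16.7 CPM (median 13.5) refed (0.70 ± 0.14, edgeR adjusted p = 0.000184), *Ndufaf5* (0.55 ± 0.19, edgeR adjusted p = 0.0263) and *Ndufaf4* (0.51 ± 0.08, edgeR adjusted p = 1.18e-05). The ranges of *Ndufaf3* and *Ndufaf4* did not overlap, with the refed mice above, as in 6.96% of all genes. Of the subunits 4 rose and 6 fell, with a median of -0.01. *Ndufb10* (0.34), *Ndufs7* (0.25), *Ndufs1* (0.22) and *Ndufa8* (0.21) were higher, the call of *Ndufa8* being lost in 8 and that of *Ndufs1* in 7 of 12 fits without a single mouse. *Ndufv3*, a small N-module subunit, was at 56.6 to 70.8 CPM (median 64.2) fasted and at 41.7 to 53.2 CPM (median 52.3) refed, without overlap (-0.33 ± 0.07 log2, edgeR adjusted p = 0.000206). It was the 1 subunit of 36 that lay wholly lower, beside 4.96% of all genes. *Ndufa1* (-0.28), *Ndufb9* (-0.24), *Ndufs4* (-0.21) and *Ndufb11* (-0.21) were lower too, as was *Ndufa4*, outside the complex, at -0.39 ± 0.08 (edgeR adjusted p = 0.000434). The call of *Ndufs4* was lost in 8 of those 12 fits. Fitted on the fasted and refed WT/Y657* libraries alone, 9 members were called in place of 14.

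The refeeding response differed between genotypes for 5 members, all more negative in WT/Y657* mice, where 1.46% of genes differed in that direction and 0.595% in the other. These were *Ndufa4* (-0.56 ± 0.12 log2, edgeR adjusted p = 0.00924), *Ndufs4* (-0.53 ± 0.12, edgeR adjusted p = 0.0147), *Ndufb9* (-0.48 ± 0.12, edgeR adjusted p = 0.0219), *Ndufb11*, a membrane-arm subunit encoded on the X chromosome (-0.36 ± 0.09, edgeR adjusted p = 0.023), and *Ndufb6* (-0.51 ± 0.13, edgeR adjusted p = 0.0248). The fasted mice are the same as in the fasting difference. The count was 2 without fasted mouse MT_923 or with the correction for length and GC content, and 8 without refed mouse WT_896. No assembly factor was called by edgeR, although 2 had an unadjusted p under 0.05, beside 2163 of all 13945 genes. *Ndufaf4* was at -0.29 ± 0.12 (edgeR adjusted p = 0.213).

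**Figure D4:**
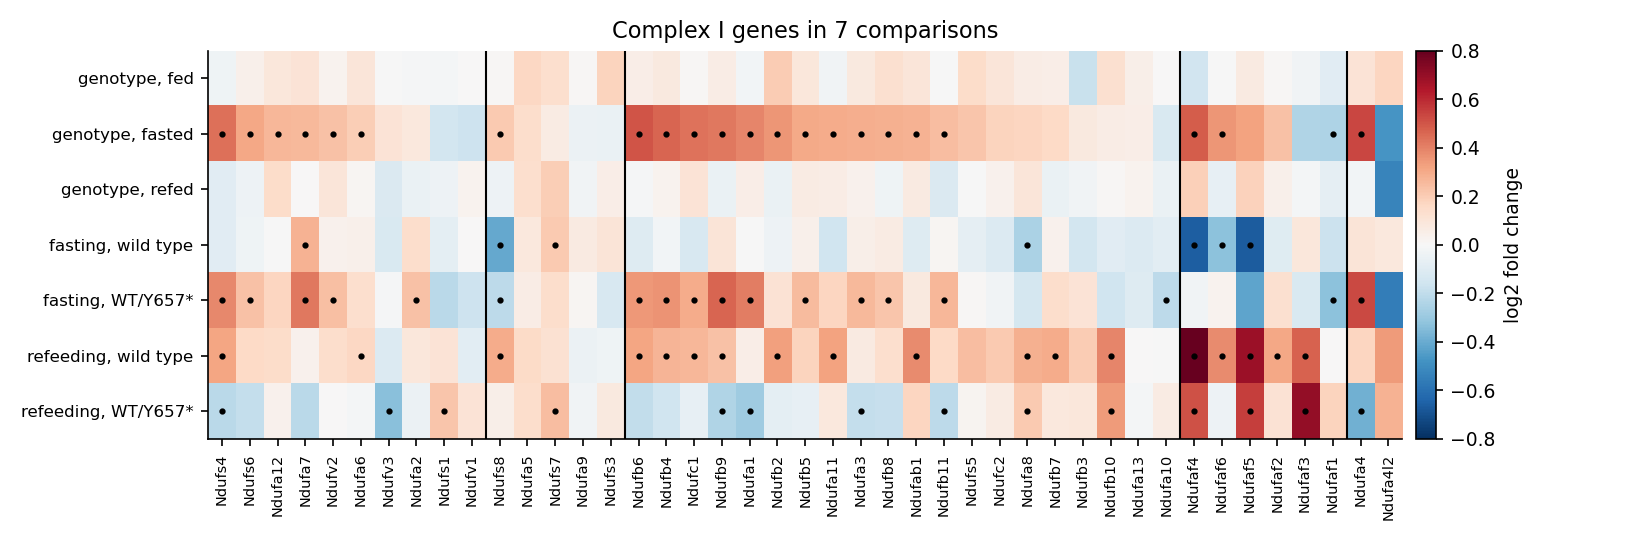
Log2 fold change of 43 members (columns, by module) in 7 comparisons (rows, the genotype in 3 feeding states, then fasting and refeeding in each genotype), blue to red from -0.8 to 0.8, with a dot where the edgeR adjusted p is under 0.05. The fasted genotype row and the fasting row of WT/Y657* mice are red across most subunits, and most assembly factors are blue in WT fasting and red in both refeeding rows.

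Subunits and assembly factors were set against each other within each liver, as the mean centred log2 CPM of the 36 subunits minus that of the 6 assembly factors. In WT mice this difference was -0.148 to -0.062 fed, 0.111 to 0.214 fasted and -0.264 to -0.009 refed. In WT/Y657* mice it was -0.146 to 0.018 fed, 0.044 to 0.382 fasted and -0.205 to -0.084 refed. In both genotypes the fasted livers lay wholly above the fed and the refed livers, so that the balance stood furthest towards subunits in the fasted state. The genotypes overlapped in every state. The subunits' own score overlapped between fasted genotypes, at -0.281 to -0.001 in WT and -0.051 to 0.232 in WT/Y657* mice, while the percent of all counts falling on the 36 subunits did not, at 0.219 to 0.255 and 0.256 to 0.308. The margin was narrow, from 0.2553 in the highest WT to 0.2558 in the lowest WT/Y657* mouse. That percent was 0.216 to 0.260 in fed WT and 0.242 to 0.290 in fed WT/Y657* mice. Refed mice were at 0.267 to 0.295 and 0.273 to 0.312. Its mean was higher in WT/Y657* mice in every state.

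**Figure D5:**
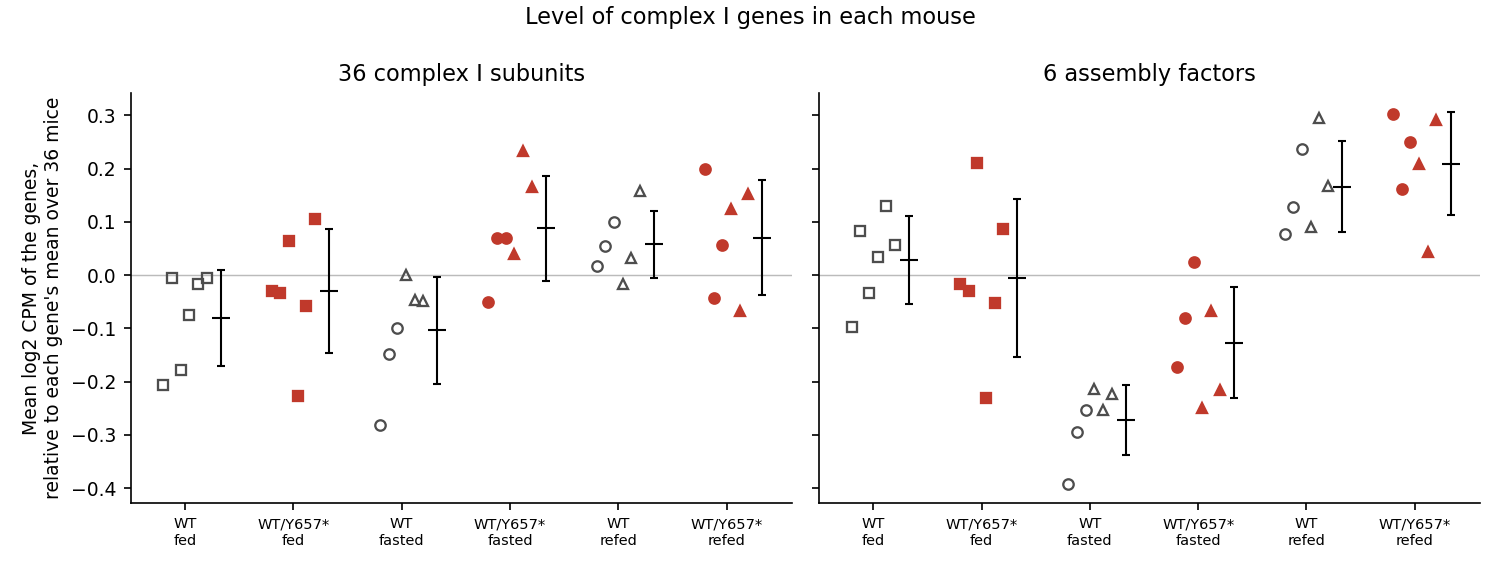
Mean centred log2 CPM of the 36 subunits and of the 6 assembly factors in each of the 36 livers, by feeding state (open grey, WT, filled red, WT/Y657*, circles, low mouse numbers, squares, middle, triangles, high), with black bars for mean and SD of 6 mice. The mean of the assembly factors is lowest in fasted and highest in refed livers of both genotypes, and fasted WT/Y657* livers sit higher than fasted WT livers on both scores with some overlap.

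Other genes of the pathway were read from lists set alongside the members. The mitochondrially encoded core subunits of the pump, of which 6 of 7 were tested, had no call between genotypes in fasted mice. All 6 estimates were positive, with a median of 0.22 log2 and 1 unadjusted p under 0.05, beside 3806 of all 13945 genes. With fasting in WT/Y657* mice 4 of the 6 rose, namely *mt-Nd1*, at 1176 to 1454 CPM (median 1297) fed and 1547 to 2138 CPM (median 1849.6) fasted, without overlap (0.50 ± 0.10 log2, edgeR adjusted p = 0.000147), *mt-Nd2* (0.68 ± 0.17, edgeR adjusted p = 0.00193), *mt-Nd3* (0.38 ± 0.10, edgeR adjusted p = 0.00228) and *mt-Nd6* (0.62 ± 0.23, edgeR adjusted p = 0.0356). Of all genes, 4.96% lay wholly above in this comparison, as *mt-Nd1* did. The call of *mt-Nd6* was lost in 8 of 12 fits without a single mouse, and that of *mt-Nd3* with the correction for length and GC content (0.15, edgeR adjusted p = 0.21). In WT mice none of the 6 was called on fasting (median -0.06, none with an unadjusted p under 0.05, beside 5724 of 13945 genes). The difference between genotypes was positive for all 6 and was called for none after adjustment. It had an unadjusted p under 0.05 for 5, beside 2664 of 13945 genes. The fed mice enter it too: between fed genotypes all 6 estimates were negative (median -0.28 log2). None of these was called, and 0 had an unadjusted p under 0.05, beside 2423 of 13945 genes. The rise with fasting in WT/Y657* mice is thus measured from fed values below those of WT mice.

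Of 10 further genes for complex I assembly, 2 were higher and 1 lower in fasted WT/Y657* liver. *Tmem126a*, an inner membrane protein of the assembly of the distal pump, was at 22.5 to 26.5 CPM (median 23.7) in WT and 27 to 40.7 CPM (median 31.9) in WT/Y657* mice (0.44 ± 0.09 log2, edgeR adjusted p = 0.00081). *Acad9*, a partner of *Ndufaf1* in the assembly complex of the pump, was at 42.5 to 55.1 CPM (median 50.3) against 30.7 to 44 CPM (median 37.4), ranges that overlapped slightly, and lower like *Ndufaf1* (-0.43 ± 0.08, edgeR adjusted p = 0.000573). The other members of that complex, *Ecsit* at -0.07 and *Tmem126b* at 0.12, were not called. *Tmem70*, also used by ATP synthase, was at 0.26 ± 0.08 (edgeR adjusted p = 0.0327), a call lost in 5 of 12 fits without a single mouse. On refeeding 7 of these 10 genes rose in WT and 5 in WT/Y657* mice with none falling, as did *Ndufaf7* and *Ndufaf8* in both (0.41 and 0.60 log2 in WT, 0.61 and 0.54 in WT/Y657* mice).

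Neighbouring gene groups moved alongside in the fasted genotype comparison. Of 43 nuclear genes for complexes II to V, 20 were higher and 1 lower in WT/Y657* liver (median 0.24 log2). Cytosolic ribosomal protein genes, which are short and abundant, were higher in 69 of 81 cases (median 0.41), and mitochondrial ribosomal protein genes in 12 of 75 with 2 lower (median 0.12). Among 7 dehydrogenases and related enzymes that feed ubiquinone or the proton gradient, *Sdha*, the flavin subunit of complex II, was lower at -0.39 ± 0.08 (edgeR adjusted p = 0.0019) and *Sdhd*, a membrane anchor of it, was higher at 0.24 ± 0.08 (edgeR adjusted p = 0.0388), a call lost in 7 of 12 fits without a single mouse and in 6 of 9 other alternatives. None of 10 regulators of nuclear respiratory genes was called by edgeR between genotypes in fasted mice. An unadjusted p under 0.05 was found for 2, beside 3806 of 13945 genes. With fasting, *Ppargc1a*, the coactivator of mitochondrial biogenesis, rose by 0.67 ± 0.19 log2 in WT mice (edgeR adjusted p = 0.00491). In WT/Y657* mice it rose by 0.99 ± 0.19 log2 (edgeR adjusted p = 6.48e-05). *Tfam*, which maintains mitochondrial DNA, rose by 0.40 in WT and 0.31 in WT/Y657* mice. The genotype difference in the fasting response was called for 0 of the 10 regulators, and 0 had an unadjusted p under 0.05. *Esrra*, a partner of that coactivator, was at 0.43 ± 0.11 in WT/Y657* mice (edgeR adjusted p = 0.00272) and at 0.24 in WT mice (edgeR adjusted p = 0.103), and the difference between genotypes was not called (edgeR adjusted p = 0.544).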

How the data were processed

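Liver RNA was sequenced from 36 mice in 6 groups of 6. The authors deposited 1 table of estimated counts per gene and library, of which 3.29% of non-zero values were not whole. Per the labels, Cuffdiff is named for alignment, featureCounts for counting and edgeR for testing. Versions and the strand setting of the counting are not given in the sources used here. The submitters' processing notes name mm9, but the loci in the table follow GRCm38: 92.2% of the genes found by identifier hold the GRCm38 gene within 2000 bases. A table of fitted values was not used here.

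Counts were rounded to whole numbers, genes with low counts were removed with filterByExpr (13945 of 38283 genes kept), and libraries were scaled by TMM. All 36 libraries entered 1 edgeR (version 4.0.16, R 4.3.3) quasi-likelihood fit with robust dispersions, and p-values were adjusted over all tested genes by Benjamini-Hochberg at a threshold of 0.05. CPM are TMM-scaled. The total counts, from 8839488 to 19542775, and 6 mice per group limit the precision, with a biological coefficient of variation of 0.181. Mice were separate animals numbered in the labels. The contrast of short with long genes was tested by exact permutation over 924 arrangements, with a smallest p of 0.0021645. The script was tested on simulated data.

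Alternatives were DESeq2 (version 1.42.0), a likelihood ratio test, DESeq2 size factors, no filter, the compared groups alone, a smooth correction for length and GC content, mouse-number runs as a covariate or fitted separately, and each mouse left out in turn. Named with values were the nuclear core subunits, the assembly factors, *Ndufa4* and *Ndufa4l2*, up to 5 called subunits in each direction per comparison, the extremes per kilobase, and up to 4 called genes per pathway list. *Ecsit*, *Tmem126b*, *Smim27* and *Esrra* in WT mice were added after their values were seen. Values of 1 member are not reported here singly or drawn, though it is counted among the 44. The members and lists were chosen with earlier results of these data known. Gene models were GENCODE M21 and promoters RefSeq GRCm38.p6.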

Additional observations from a re-analysis of the deposited data

Results flagged for a closer look

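Responses to feeding that differed between genotypes by the edgeR interaction term, with adjusted p under 0.05, are given here as WT/Y657* minus WT on the log2 scale. For fasting they were *Ndufaf4* 0.64, *Ndufs4* 0.47, *Ndufb6* 0.45, *Ndufa4* 0.43, *Ndufc1* 0.42 and *Ndufa1* 0.41, and of the further assembly genes *Tmem126a* 0.42 (edgeR adjusted p = 0.04) and *Acad9* -0.51 (edgeR adjusted p = 0.00859). Leaving out mice one at a time ended the call of *Ndufc1* in 17 of 24 fits, of *Tmem126a* in 15 and of *Ndufb6* in 12. For refeeding they were *Ndufa4* -0.56, *Ndufs4* -0.53, *Ndufb6* -0.51, *Ndufb9* -0.48 and *Ndufb11* -0.36. The fasted mice are shared by both sets. *Acad9*, the fatty acyl dehydrogenase relative that works in complex I assembly, had the only negative value in the fasting set.

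A single mouse stood apart from the other 5 of its group in 11 of the 234 groups examined, by Dixon's test with a critical value of 0.625, where chance gives about 1 in 20. Among members, fasted mouse WT_919 was low for *Ndufa4l2* (0.289 CPM), fasted mouse MT_923 high for *Ndufa7* (104 CPM), refed mouse MT_899 high for *Ndufab1* (52.3 CPM) and refed mouse WT_815 low for it (32.6 CPM). Fed mouse WT_850 was high for *Ndufaf3* (11.7 CPM), fed mouse WT_848 high for *Ndufb11* (97.4 CPM), and refed mouse MT_898 low for *Ndufv3* (41.7 CPM). Refed mouse WT_828 was high for *Tmem126a* (41.5 CPM).

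*Nnt*, the proton-driven transhydrogenase of the inner membrane, gave 3 of the 11, with fed mouse WT_848 at 85.7 CPM, fasted mouse WT_825 at 139.6 CPM and refed mouse MT_810 at 70.5 CPM.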

How the results depend on the processing

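Counts of members called stayed within 1.5 times the reported count in most alternatives. These alternatives include the fed and refed genotype comparisons, which had 0 members called and so no call to lose. No paired analysis was possible because every mouse has a number of its own. With the correction for length and GC content, 15 members were called between fasted genotypes, 11 on refeeding in WT mice, and 2 each for the genotype differences in fasting and in refeeding. Without the filter the fasting difference had 3, and the compared groups alone gave 9 for refeeding in WT/Y657* mice. Within mouse-number runs the fasted genotype count was 12 (low) and 1 (high). The causes were not tested, although runs hold fewer mice. Leaving out 1 mouse gave 14 to 21 members for the fasted genotype comparison (15 without WT_807, 14 without MT_923), 3 to 9 for the fasting difference (3 without WT_807, WT_860, MT_806, MT_866 or MT_923), 2 to 8 for the refeeding difference (2 without MT_923, 8 without WT_896), 5 to 7 and 15 to 21 for fasting in WT and WT/Y657* mice, and 15 to 20 and 10 to 14 for refeeding. Fed and refed genotypes had 0 members throughout. With deciles of genes the fasted length contrast was 0.14 (adjusted p = 0.0455). Medians that moved were those of WT refeeding under the length and GC correction (subunits 0.0639, assembly factors 0.347) and of assembly factors between fasted genotypes (0.366 low run, 0.0418 high run). For *mt-Nd3* the refeeding response of WT/Y657* mice turned from negative to 0.014 under the length and GC correction (edgeR adjusted p = 0.929). Among genes named, 180 calls were lost and 9 gained over all fits without a mouse. A further 2943 values kept their side of the threshold, but these include genes never called, which had no call to lose. Over the other alternatives 94 calls were lost, 2 gained and 1 reversed in sign, and 1539 values kept their side.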

Other observations

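*Nnt* fell into higher and lower mice in every feeding state, mostly by genotype but with exceptions in each. Among the 12 fed mice the widest gap ran from 49 to 81.8 CPM, with 5 WT and 1 WT/Y657* mice below it and 1 WT and 5 WT/Y657* mice above. Fasted mice had a gap from 81.4 to 113 CPM with the same division, 5 WT and 1 WT/Y657* below and 1 WT and 5 WT/Y657* above. In refed mice the gap ran from 76.1 to 114 CPM, with 4 WT and 1 WT/Y657* mice below and 2 WT and 5 WT/Y657* mice above. The edgeR genotype comparison did not call *Nnt*, at 0.75 log2 fed (adjusted p = 0.0757), 0.50 fasted (adjusted p = 0.167) and 0.35 refed (adjusted p = 0.659). As background, C57BL/6J mice carry a deletion in *Nnt* that other C57BL/6 substrains lack. The gene lies 17.7 Mb from *Pik3r1* on chromosome 13. These divisions were drawn from the values themselves and were not tested, and their part in the results for complex I was not tested.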
